A study of Mus musculus with 4 samples.

Results

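Cell cycle genes were followed in circulating leukocytes through 40 genes chosen by name: 14 that act in DNA replication (helicase subunits, fork factors and enzymes of nucleotide supply) and 26 that act in cell division. All 40 were found once among the 32287 features of the count tables. The cells came from the blood of C57BL/6J mice, 10 weeks old, that carried a BCR-ABL-driven acute lymphoblastic leukaemia (ALL) and were treated with dasatinib, an inhibitor of the BCR-ABL kinase. Blood was drawn 1 week into treatment and cryopreserved, and treatment went on for 4 more weeks. At day 100 the donors were classed as Cured or Relapsed, with 6 mice in each group, so both groups carried the same leukaemia and received the same drug. After thawing and a sort for live cells, each library combined 3 mice, which gave 2 libraries per group and no way to trace a cell to a mouse. The study asked what sets apart, early in treatment, the blood of mice that later stayed in remission. Values of the 4 libraries are given in the order Cured replicate 1, Cured replicate 2, Relapsed replicate 1, Relapsed replicate 2.

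A cell about to divide loads the Mcm2 to Mcm7 helicase onto its DNA, copies the DNA with the help of the sliding clamp Pcna and a supply of nucleotides, and then builds a spindle and segregates its chromosomes under the kinases Cdk1, Plk1, Aurka and Aurkb. Most leukocytes in blood are resting, and their division takes place mainly in bone marrow, lymph nodes and spleen. Some proteins of the list also work outside division, such as the chromatin protein Hmgb2 and the tubulin-binding protein Stmn1.

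The libraries held 16157 barcodes and 37141352 unique molecular identifiers (UMIs, 1 per captured RNA molecule), and 15439 cells were kept (3780, 4136, 3252 and 4271). Cells were placed in a class when they had UMIs of at least 3 marker genes of 1 lineage and of fewer than 3 of every other. This gave 1272 T cells (850 of them with a Cd8a or Cd8b1 UMI and no Cd4 or Cd40lg UMI, called CD8 T cells here), 727 NK cells, 11313 B cells, 338 monocytes, 992 neutrophils and 133 B-lineage cells with a UMI of Cdkn2a or of GFP_1, a sequence added to the reference. Defining markers went with the classes, with Cd3e in 91.0% of T cells, Ncr1 in 77.7% of NK cells, Cd79a in 99.1% of B cells, Csf1r in 76.3% of monocytes and Csf3r in 87.7% of neutrophils. A further 569 cells carried at least 3 markers of more than 1 lineage (called mixed) and 95 fitted no class. Between 20 and 29 cell barcodes were shared by any 2 libraries. The Cured libraries were the deeper ones, with median UMIs of 3538.5 and 3323 against 3083 and 3118.5 per T cell, 2016 and 1860.5 against 1545.5 and 1789 per NK cell, and 2232 and 2341 against 1843 and 2024 per B cell. Values with each cell thinned to 1000 UMIs are given beside the results this gap touches.

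The 40 genes together gave 25068 UMIs, which was 0.0688% of the 36416604 UMIs of the kept cells. Hmgb2 alone held 41.2% of them, and the 11 genes with at least 500 UMIs held 22289. None of the barcodes left out had more than 3 of the genes. A typical kept cell showed 1 of the 40 genes, and 29.0% of cells showed none. Cells with at least 5 of the genes numbered 149 (0.965%), and 21 cells had at least 10 (0.136%, exact 95% interval 0.0842 to 0.208). The interval covers counting error only, as do all intervals below.

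**Figure D1:**
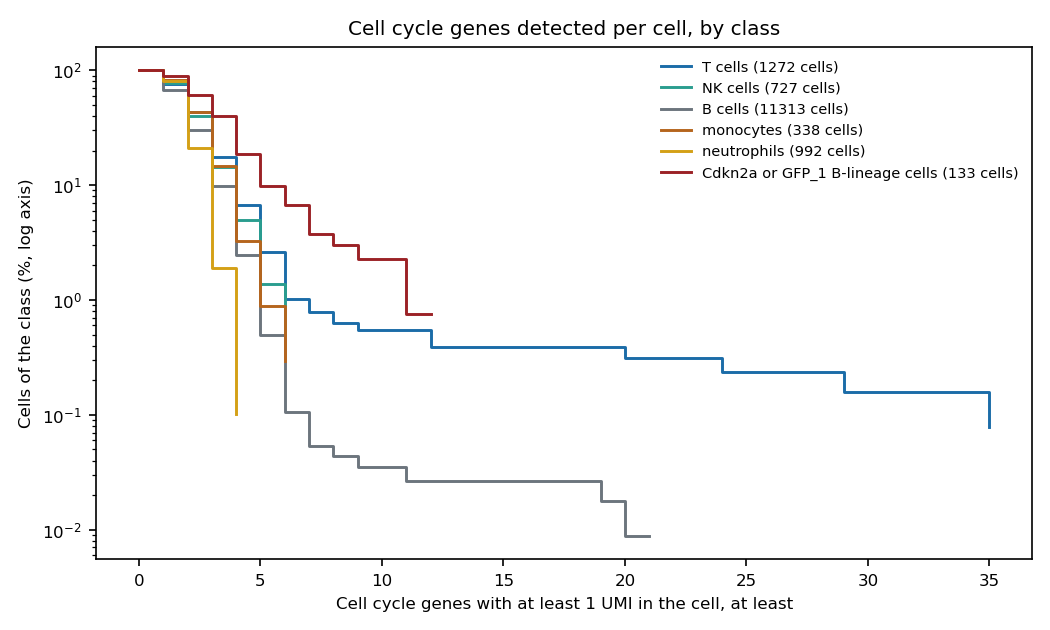
Share of cells (%, log axis) in which at least the number of cell cycle genes on the x axis had a UMI, for the 6 classes that do not overlap, all 4 libraries together. The lines of T cells and B cells have long flat tails, up to 35 genes in a T cell and 21 in a B cell, while no neutrophil showed more than 4 genes and no NK cell or monocyte more than 6.

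The number of genes per cell differed by class. Unthinned means were 2.38 in Cdkn2a or GFP_1 B-lineage cells, 1.57 in T cells, 1.45 in monocytes, 1.39 in NK cells, 1.11 in B cells and 1.03 in neutrophils, and depth differed too, from a median of 4841 UMIs per cell in the first of these classes to 963.5 in neutrophils, though not in the same order, since NK cells had a median of 1797 UMIs and B cells 2125. With each cell thinned to 1000 UMIs the order was another: 1.00 in neutrophils, 0.844 in NK cells, 0.715 in monocytes, 0.585 in T cells, 0.549 in Cdkn2a or GFP_1 B-lineage cells and 0.539 in B cells. Thinning left out 1325 cells with fewer UMIs, among them 547 of the 992 neutrophils. The neutrophil value came almost wholly from Hmgb2 and Cks2, as described below, so a high mean did not go with many genes per cell.

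The 21 cells with at least 10 of the genes were spread over all 4 libraries, with 3, 8, 6 and 4 cells, or 0.0794% (0.0164 to 0.232), 0.193% (0.0835 to 0.381), 0.185% (0.0677 to 0.401) and 0.0937% (0.0255 to 0.240) of kept cells. The intervals of all 4 overlap, and neither group lay apart from the other. By class, 7 were T cells (6 of them CD8 T cells), 4 B cells, 3 Cdkn2a or GFP_1 B-lineage cells, 6 mixed cells and 1 ungated, and none was an NK cell, a monocyte or a neutrophil. These cells were deep, with a median of 8903 UMIs (2152 to 19772) against 2134 over all kept cells. Other genes of the S, G2 and M phases, 72 genes that are not among the 40, went with them: a median of 24 of the 72 was detected in these cells (5 to 56), against 5 in cells with 5 to 9 of the genes and 3 in cells with 0 to 4. After thinning, the means were 6.38, 1.81 and 1.48 of the 72 genes, so the cells with 5 to 9 genes lay close to the rest at equal depth.

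**Figure D2:**
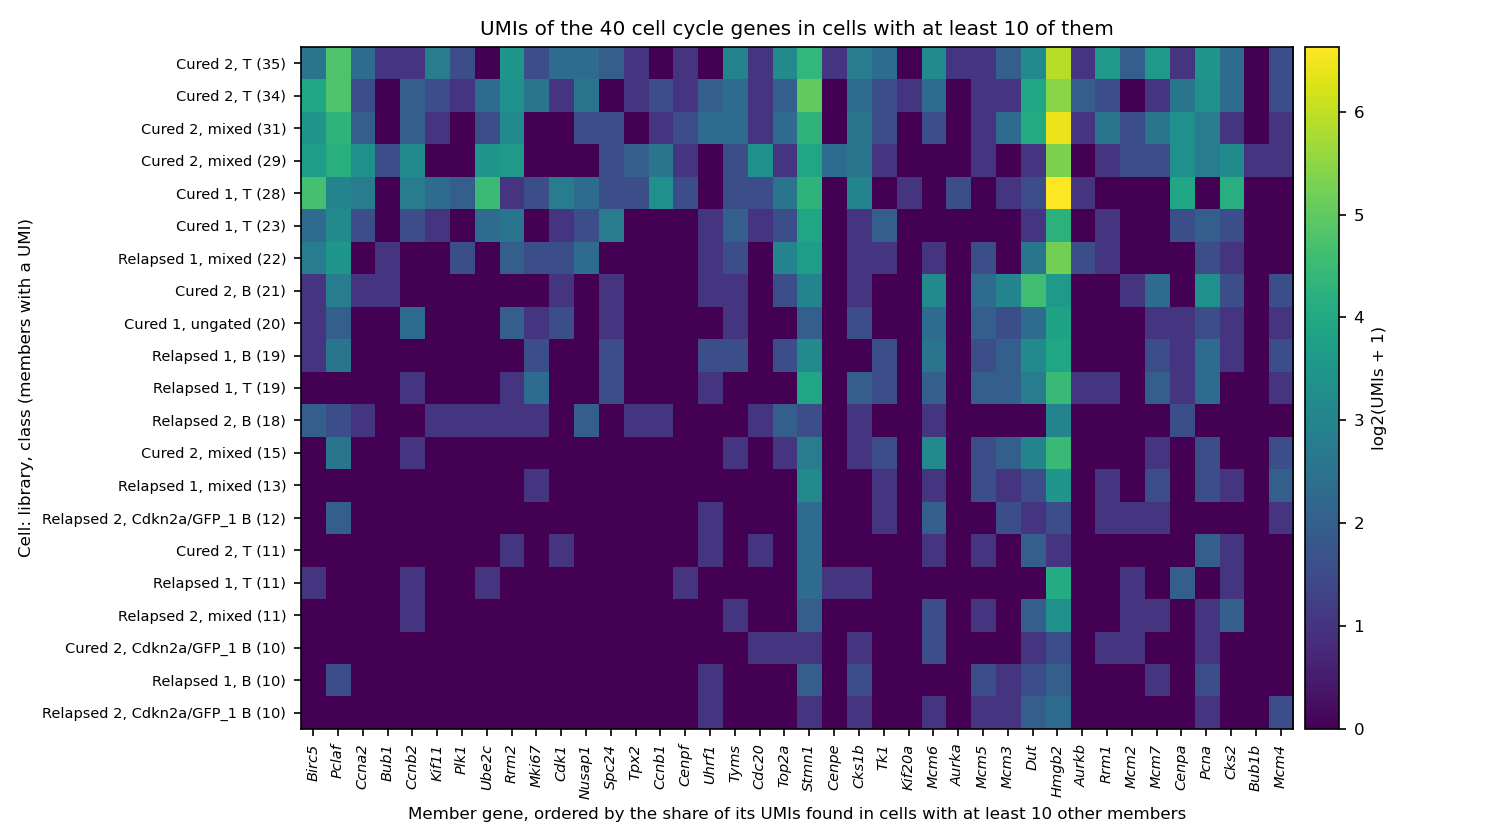
UMIs, as log2(UMIs + 1), of the 40 genes (columns, ordered by the share of their UMIs found in cells with at least 10 other genes of the list) in each of the 21 cells with at least 10 of them (rows, with library, class and number of genes detected). Birc5, Pclaf and Ccna2 at the left are bright in the cells at the top, which are T and mixed cells, and mostly dark in the cells at the bottom, while Hmgb2 and Stmn1 are lit across the rows.

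The cells with the most genes were T cells. A CD8 T cell of Cured replicate 2 held 35 of the 40 genes in 13242 UMIs, with 27 UMIs of Pclaf (a Pcna-binding factor of DNA replication), 59 of Hmgb2 and 8 of Top2a (the topoisomerase that untangles chromosomes). Another of that library held 34 genes, among them 27 UMIs of Pclaf and 14 of Birc5 (survivin, of the chromosomal passenger complex). Both phases of the cycle were represented in these cells, with 13 replication genes in each and 22 and 21 division genes. A CD8 T cell of Cured replicate 1 with 28 genes leaned to division, with 5 replication and 23 division genes, 24 UMIs of Birc5, 22 of Ube2c (the ubiquitin-conjugating enzyme of the anaphase-promoting complex) and 9 of Ccnb1 (cyclin B1). In the Relapsed libraries the T cells with most genes had 19 and 11, both in replicate 1, and Relapsed replicate 2 had no T cell with at least 10.

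Cells outside the T, B and NK classes also took part. Of the 6 mixed cells 4 carried at least 3 T and at least 3 NK markers, and 1 of these, with 29 cell cycle genes, had 277 UMIs of Gzma and 37 of Gzmb, granule proteases of cytotoxic cells. Among the mixed cells 1 also had 8 B-lineage markers beside its T and NK markers, and another had T and B-lineage markers. Whether more than 1 cell shared these droplets was not tested, because no doublet caller was used. The ungated cell, from Cured replicate 1, had 20 cell cycle genes and 575 UMIs of the plasma cell markers, 424 of them Jchain, the chain that joins secreted antibodies. Of the 4 B cells with at least 10 genes, 1 from Relapsed replicate 1 had 8 UMIs of Ighd, a marker of resting mature B cells, and 1 from Cured replicate 2 had 26 plasma cell marker UMIs, 24 of them Mzb1.

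Each gene's UMIs were then split by whether the cell held at least 10 other genes of the list. Such cells were at most 0.136% of the kept cells and deeper than the rest. The share of all UMIs in them was not computed, so the shares below only rank the genes against one another. Even the lowest of them lies above that share of cells. The highest shares in such cells were 94.3% of the 87 Birc5 UMIs, 93.3% of the 149 Pclaf UMIs, 90.3% of the 31 UMIs of Ccna2 (cyclin A2), 83.3% of the 6 UMIs of the checkpoint kinase Bub1, 75.6% of the 41 UMIs of Ccnb2 (cyclin B2), 71.4% of the 21 UMIs of the spindle motor Kif11 and 64.3% of the 14 Plk1 UMIs. The share was above 25% for 17 of the 40 genes, which besides these included Ube2c, Rrm2 (a ribonucleotide reductase subunit), Mki67 (the Ki-67 antigen, 54.1% of 37 UMIs), Cdk1, the spindle proteins Nusap1 and Tpx2, the kinetochore proteins Spc24 and Cenpf, Ccnb1 and Uhrf1. At the other end, 2.26% of the 795 Mcm4 UMIs, 3.06% of 1535 Cks2 UMIs, 3.07% of 2053 Pcna UMIs, 3.17% of 1512 UMIs of Cenpa (the centromeric histone) and 4.87% of 10318 Hmgb2 UMIs lay in such cells. The remaining helicase subunits Mcm2, Mcm3, Mcm5, Mcm6 and Mcm7 were between 3.32% and 5.54%. For each of these genes the median number of other genes of the list was 1 in cells with its UMI and 1 in cells without. Kif20a (spindle kinesin), Aurka and Bub1b had 21, 55 and 42 UMIs in all and also lay mostly outside such cells, at 9.52%, 5.45% and 2.38%. So did other genes of mitosis, with 4.76% of the 189 Aurkb UMIs, 17.6% of the 34 Cenpe UMIs, 38 of the 190 Top2a UMIs and 21.5% of the 79 Cdc20 UMIs.

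**Figure D3:**
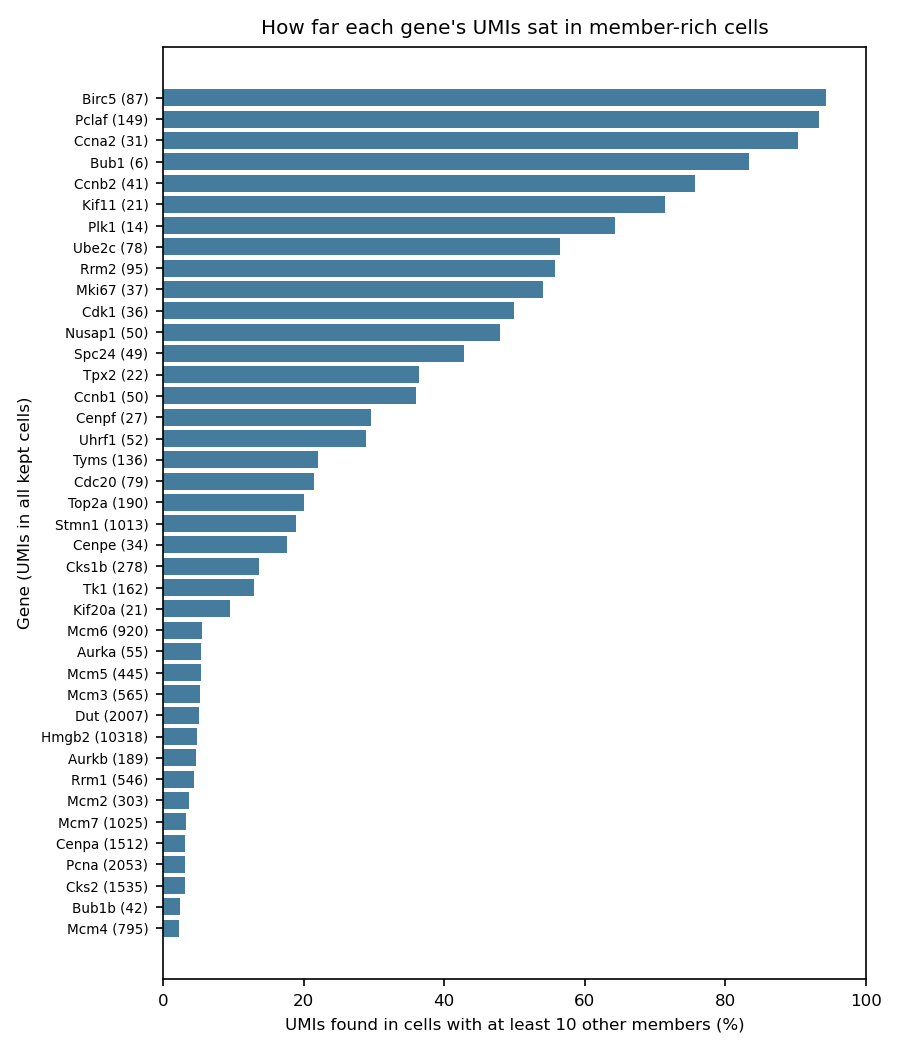
Percentage of each gene's UMIs that lay in cells with at least 10 other genes of the list, with the gene's UMIs in all kept cells in brackets. Birc5, Pclaf and Ccna2 lie above 90%, 17 genes lie above 25%, and Pcna, Cks2 and Mcm4 lie near 3% or below.

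The bases just before the transcription start are shown for 3 genes whose UMIs were concentrated in the few rich cells and for 3 that were detected broadly, since genes of the cycle are known to share promoter elements. They are the 100 bases before the RefSeq start (build GRCm38.p6), 5′ to 3′ on the gene's strand, and capitals mark matches to the letters searched on both strands: CCAAT (the CCAAT box), TTTGAA or TTCGAA (the cell cycle homology region), and TTTCCCGC, TTTGGCGC, TTTCGCGC or TTTGCCGC (E2F). Each motif was counted on its own, so a base could count for more than 1.
Birc5 (chr11:117849137-117849236, plus strand): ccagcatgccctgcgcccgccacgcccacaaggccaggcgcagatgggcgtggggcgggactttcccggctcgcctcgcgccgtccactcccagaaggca
Kif11 (chr19:37376282-37376381, plus strand): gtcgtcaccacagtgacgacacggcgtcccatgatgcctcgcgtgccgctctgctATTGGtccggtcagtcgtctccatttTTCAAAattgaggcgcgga
Mki67 (chr7:135716380-135716479, minus strand): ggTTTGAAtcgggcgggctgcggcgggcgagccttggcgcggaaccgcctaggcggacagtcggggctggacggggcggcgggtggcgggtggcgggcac
Hmgb2 (chr8:57511743-57511842, plus strand): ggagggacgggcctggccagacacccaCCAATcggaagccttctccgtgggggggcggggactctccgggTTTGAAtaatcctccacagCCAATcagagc
Cks2 (chr13:51645132-51645231, plus strand): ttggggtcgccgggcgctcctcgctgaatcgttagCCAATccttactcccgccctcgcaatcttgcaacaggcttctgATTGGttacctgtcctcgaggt
Mcm6 (chr1:128359706-128359805, minus strand): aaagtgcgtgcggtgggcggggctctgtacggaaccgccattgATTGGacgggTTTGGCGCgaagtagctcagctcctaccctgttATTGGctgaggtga

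A RefSeq start was found for 33 of the 40 genes. In the 250 bases before it, 28 of the 33 (84.8%) held a CCAAT box, against 34.5% of 27025 promoters, 12 (36.4%) held a cell cycle homology region, against 17.4%, and 4 (12.1%) held an E2F match, against 1.91%. The concentrated and the broad genes did not part by these letters: a CCAAT box lay before 12 of 14 matched genes of the first kind and 16 of 19 of the second, and a cell cycle homology region before 5 of 14 and 7 of 19. Hmgb2, found in 40.1% of all cells, had both elements in the 100 bases shown, and Birc5, found in 0.110%, had none of the letters. These matches are a description of the sequence and no test was made on them.

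The levels of the broad genes set the classes apart, with neutrophils farthest from the others. Class sums per library were compared with B cells in a fit with the library as a block (edgeR quasi-likelihood test with Benjamini-Hochberg adjustment over all genes, threshold 0.05), a comparison added after values had been seen. Levels are in CPM, a gene's UMIs scaled to all UMIs of the class in that library, and positive log2 fold changes are higher than in B cells. The fits scale the class sums further, so a fold change can differ from the CPM, even in sign, as for Pcna in NK cells. They also took much of a gene's spread from all genes together, over at most 4 libraries. For most genes the very small p-values between classes therefore do not measure a gene's own spread between pools. In neutrophils 13 of 14 genes tested passed, against 70.0% of the 8881 genes tested: 2 were higher than in B cells, against 25.7%, and 11 were lower, against 44.3%. The median log2 fold change was -2.89 over the 14 genes and -0.65 over all genes. The lower genes passed the filter on low counts through B cells, where they are high, so the counts describe these genes, do not bear on the list, and are no support for a direction.

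The 2 genes higher in neutrophils were Hmgb2 and Cks2. Hmgb2 was at 1418, 1510, 1666 and 1334 CPM in neutrophils against 206, 184, 204 and 189 in B cells (log2 fold change 3.06, SE 0.09, adjusted p = 1.67e-252), and a UMI was found in 72.2% against 33.2% of cells. Cks2, a small partner of Cdk1, was at 449, 275, 281 and 295 CPM against 31.8, 21.1, 28.9 and 19.1 (3.82, SE 0.15, adjusted p = 5.81e-132). No library of one class reached the range of the other. Their relatives did not go with them: Cks1b, the other partner of Cdk1, had 0 UMIs in neutrophils and 158 in B cells. Top2a and Mki67 had 1 UMI each in the 992 neutrophils, and Cdk1, Ccna2, Ccnb1, Birc5, Pclaf and Plk1 had none, which allows a share of up to 0.302% of neutrophils with a UMI of each.

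The replication genes were at or near 0 in neutrophils. Dut, which clears dUTP from the nucleotide pool, had 0 UMIs there against 1460 in B cells, and with the floor of 3 UMIs over the class this was at least 20.5-fold lower. On the same scale Mcm6 was at least 8.31-fold, Stmn1 at least 7.61-fold, Mcm3 at least 5.86-fold and Mcm5 at least 4.64-fold lower. Pcna kept a level, at 43.7, 27.9, 30.3 and 9.99 CPM against 63.9, 53.0, 68.2 and 51.6 (-0.91, SE 0.27, adjusted p = 0.0017). Cenpa (-1.05, adjusted p = 0.0015), Mcm7 (-2.41), Rrm1 (-2.89) and Mcm2 (-2.90) were also lower, and Mcm4 was at -0.90 and did not pass (adjusted p = 0.0638).

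**Figure D4:**
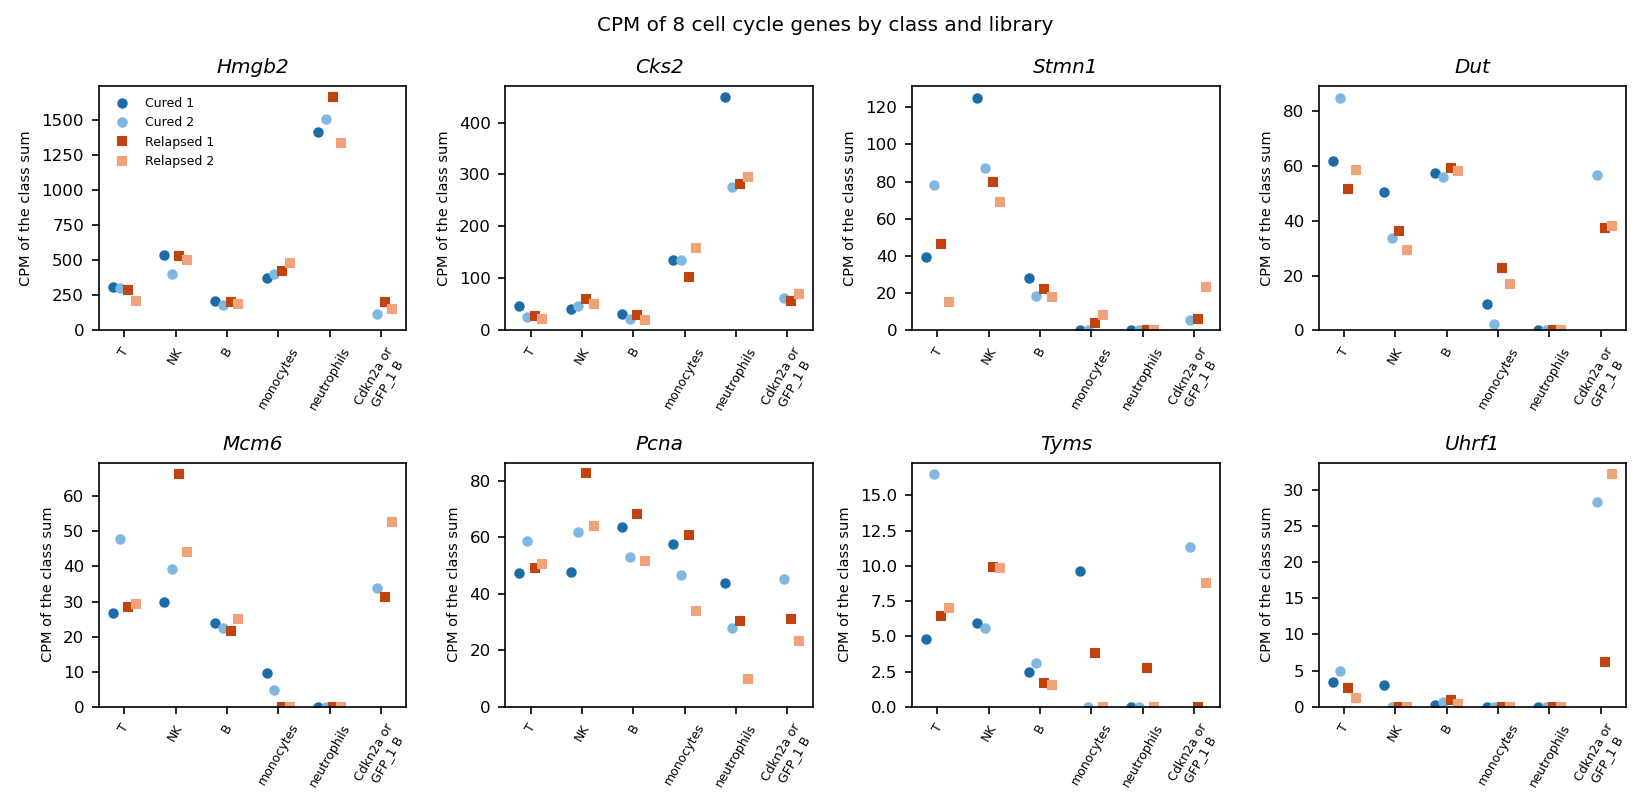
CPM of 8 cell cycle genes in 6 classes, 1 point per library (circles Cured, squares Relapsed), each panel with its own y axis from 0. Hmgb2 and Cks2 are highest in neutrophils, where Stmn1, Dut and Mcm6 are at 0 in all 4 libraries. Uhrf1 is highest in the Cdkn2a or GFP_1 B-lineage cells, where the 3 cells of Cured replicate 1 are left out.

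In monocytes 10 of 15 genes tested passed, against 47.8% of all genes. Cks2 (135, 135, 103 and 159 CPM, 2.34, SE 0.18, adjusted p = 9.91e-37) and Hmgb2 (376, 399, 426 and 481 CPM, 0.96, SE 0.10, adjusted p = 3.37e-19) were higher than in B cells, where 24.0% of all genes were higher, and 8 were lower, against 23.8%. Neutrophils were not tested against monocytes. The lower genes were Mcm6 (-3.27), Stmn1 (-2.66), Cenpa (-2.43), Dut (-2.38), Mcm2 (-2.32), Mcm7 (-1.68), Mcm3 (-1.61) and Mcm4 (-1.03). They too passed the filter through B cells, with 2 UMIs of Mcm2, 3 of Mcm6 and 4 of Stmn1 in all monocytes, so their count is no support for a direction. Pcna, at 57.8, 46.5, 60.9 and 34.0 CPM, did not pass (adjusted p = 0.0732).

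NK cells, which kill infected or transformed cells, had the highest mean Stmn1 level of the 7 classes, 90.2 CPM. Stmn1 was at 125, 87.2, 79.6 and 68.9 CPM against 28.3, 18.5, 22.5 and 17.7 in B cells (1.69, SE 0.17, adjusted p = 1.53e-21). It was found in 15.0% of NK cells, never with more than 3 UMIs in a cell, so no single cell carried it. Of 16 genes tested 9 passed, against 44.1% of all genes. Higher were 5, against 20.9%: Stmn1, Hmgb2 (539, 399, 530 and 499 CPM, 0.96), Tyms (thymidylate synthase, 1.44), Cks2 (0.65) and Mcm6 (0.55). Lower were 4, against 23.2%: Cks1b (-1.87), Mcm3 (-1.01), Dut (50.7, 33.7, 36.5 and 29.5 CPM, -1.0) and Cenpa (-0.89). Tyms passed the filter on low counts through NK cells and Cks1b through B cells, where each is high, so these counts are no support for a direction. Without Relapsed replicate 2 the number passing was 4 in all, 2 in each direction. The most abundant NK gene that did not pass was Pcna, at 47.7, 61.9, 82.9 and 63.9 CPM (-0.25, adjusted p = 0.225).

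T cells differed from B cells in 12 of 18 genes tested, against 48.4% of all genes, with 10 higher, against 24.5%, and 2 lower, against 24.0%. The higher genes were Tyms (2.12, SE 0.37, adjusted p = 6.18e-08), Stmn1 (1.26), Cks1b (1.18), Top2a (0.98), Mcm6 (0.73), Mcm2 (0.73), Hmgb2 (0.72, SE 0.06, adjusted p = 5.29e-30), Cks2 (0.52), Mcm7 (0.45) and Dut (0.39), and the lower ones Aurkb (-1.69, the kinase of the passenger complex) and Cenpa (-0.57, 28.2, 28.9, 24.6 and 28.2 CPM against 49.4, 45.3, 48.1 and 47.0). Tyms passed the filter on low counts through T cells and Aurkb through B cells, where each is high, so the counts are no support for a direction. Several of the higher genes rested on the 7 T cells with at least 10 genes. Of the 201 Stmn1 UMIs of T cells 106 came from these 7 cells, and outside them T cells held 22.4 CPM of Stmn1 and B cells, without their own 4 such cells, 20.8. For Top2a the values outside were 3.30 and 4.12 CPM, for Cks2 25.4 and 25.1 and for Cks1b 7.18 and 5.91. Hmgb2 (228 and 194), Mcm6 (29.9 and 22.7), Tyms (5.65 and 2.06) and Mcm2 (10.9 and 7.90) kept a wider gap. Dut and Mcm7, which did not keep one, are given in the next paragraph. The number of genes past the test fell to 4 of 16 with a gate of 2 markers and to 4 of 15 with cells thinned to 1000 UMIs, and was 20 of 40 with DESeq2.

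Within T cells Stmn1 was at 39.2, 78.4, 46.6 and 15.2 CPM. Hmgb2 was at 308, 302, 290 and 211 CPM, Dut at 61.9, 85.0, 51.7 and 58.7, Pcna at 47.5, 58.6, 49.1 and 50.4 and Mcm7 at 33.7, 37.2, 29.7 and 32.8. The groups overlapped in Stmn1 and Pcna. In Hmgb2, Dut and Mcm7 both Cured libraries lay above both Relapsed ones, by margins that did not pass (adjusted p = 0.746, 0.716 and 0.928). Outside the T cells with at least 10 genes the groups overlapped in Hmgb2 (231, 223, 246 and 211 CPM) and Mcm7 (34.1, 27.9, 26.3 and 32.8). Dut kept the order there (60.5, 66.0, 44.6 and 58.7 CPM). In B cells Pcna was at 63.9, 53.0, 68.2 and 51.6 CPM, Dut at 57.5, 56.1, 59.4 and 58.1 and Mcm7 at 30.8, 26.4, 25.1 and 30.5. Outside the T cells with at least 10 genes, mean T cell levels were 57.5 CPM for Dut and 30.3 for Mcm7. Both lie within the range of these B cell values. T cells set against NK cells differed in 2 of 9 genes tested, against 40.1% of all genes: Dut was higher in T cells (1.35, SE 0.21, adjusted p = 2.4e-08; 20.8% of all genes were higher) and Hmgb2 lower (-0.25, SE 0.09, adjusted p = 0.0126; 19.3% of all genes were lower). No gene was lower with DESeq2, with mixed cells kept or without Cured replicate 1, Relapsed replicate 1 or Relapsed replicate 2, and without Cured replicate 2 the genes past the test numbered 4.

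The B-lineage cells with a Cdkn2a or GFP_1 UMI numbered 3, 31, 32 and 67. Cdkn2a encodes inhibitors of the cell cycle and had UMIs in 132 of the 133 cells, GFP_1 in 17, and the fusion sequence BCR_ABL_1 in none, which allows up to 2.26% of these cells with a UMI. A UMI was needed to enter the class, and its cells were deep (median 4841 UMIs against 2125 in B cells). How far the entry rule bears on this depth was not tested. Cured replicate 1 had too few cells for a fit, so the class was compared with B cells over the 3 other libraries, and Cured against Relapsed was not fitted. Of 18 genes tested 5 passed, against 14.5% of all genes, with 4 higher than in B cells, against 7.34%, and 1 lower, against 7.12%. Uhrf1 and Aurkb, among the higher genes, did not pass the filter on low counts through B cells alone. They needed this class, where they are high, so the count of higher genes is no support for a direction.

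Uhrf1 had the largest fold of the 5. It passed the filter on low counts through this class, where it is high, and was tested in no other comparison with B cells. This protein, which copies DNA methylation onto newly made strands, had 5, 1 and 11 UMIs in 31, 32 and 67 cells, or 28.3, 6.25 and 32.1 CPM, against 0.651, 0.947 and 0.428 CPM in the B cells of the same libraries (log2 fold change 5.13, SE 0.63, adjusted p = 1.39e-09). All 3 libraries lay above all B cell values. A UMI was present in 12 of 133 cells (9.02%) and in 13 of 11313 B cells (0.115%), with at most 3 in a cell. Among cells of at least 4000 UMIs the shares were 12.5% of 96 and 0.634% of 473, with median depths of 5446 and 4676, a smaller ratio than over all cells. The libraries differed at this depth: in Relapsed replicate 1 the shares were 4.76% of 21 and 3.57% of 56 cells, and the level was lower than in B cells, at 8.04 against 10.8 CPM. In Cured replicate 2 they were 11.5% of 26 and 0.529% of 189, and in Relapsed replicate 2 17.4% of 46 and 0% of 111. In neutrophils, monocytes and NK cells Uhrf1 had 0, 0 and 1 UMI, and in T cells 14, or 3.44, 4.95, 2.59 and 1.17 CPM. Uhrf1 passed under every alternative that tested it, with adjusted p from 4.01e-12 to 0.00128 (DESeq2 2.2e-07). Where the count filter was used it entered through this class, where it is high, so these calls are no support for a direction.

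The other genes of this class moved less. Aurkb was found in 14 of 133 cells (10.5%) and in 1.33% of B cells (2.04, SE 0.53, adjusted p = 0.00347), and among cells of at least 4000 UMIs in 10.4% and 3.81%. Aurkb needed this class, where it is high, to pass the filter on low counts, so its call is no support for a direction. Cks2 was at 62.3, 56.3 and 70.1 CPM against 21.1, 28.9 and 19.1 (1.47, SE 0.29, adjusted p = 9.41e-05), and Cks1b was higher by 1.56 (adjusted p = 0.0479). Pcna was lower (45.3, 31.3 and 23.4 CPM, -0.92, SE 0.29, adjusted p = 0.0237). Without Relapsed replicate 2, the library with 67 of the 133 cells, 1 of the 18 genes passed, and none of 12 did with thinned cells, where Uhrf1 was too rare to be tested. Mki67, Birc5, Cdk1, Ccna2, Ccnb1 and Ube2c had 0 UMIs in all 133 cells, which allows up to 2.26% of cells with a UMI of each. In B cells Mki67 was found in 0.0884% and Birc5 in 0.0442% of cells, far below that limit. Top2a was found in 5 of the 133 cells (3.76%) and in 0.849% of B cells, and did not pass (adjusted p = 0.601). Among cells of at least 4000 UMIs its shares were 5.21% and 3.59%. The 3 cells of this class with at least 10 genes held 10, 12 and 10 of them, with 5 to 10 replication genes and 2 to 5 division genes each.

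Cured and Relapsed libraries were compared class by class (edgeR on class sums, 2 libraries against 2, log2 fold changes positive where Cured was higher). No gene of the 40 passed in T cells (0 of 15 tested, 2 at an unadjusted p under 0.05, DESeq2 0 of 39; 0% of 6486 genes passed), NK cells (0 of 9, 0 at an unadjusted p under 0.05, DESeq2 0; 0% of 4410), B cells (0 of 21, 1 at an unadjusted p under 0.05, DESeq2 0; 0% of 10204), monocytes (0 of 3, 0 unadjusted, DESeq2 0; 0.13% of 3848, 0.104% higher and 0.026% lower) or neutrophils (0 of 2, 0 unadjusted, DESeq2 0; 0% of 2633). The median log2 fold change of the tested genes was 0.30 in T cells, -0.12 in NK cells and 0.01 in B cells, against 0.00, -0.01 and 0.00 over all genes. The libraries are pools of different mice, with only 2 pools per group. The fits took much of a gene's spread from all genes together. In CD8 T cells this weight was at its limit (median prior degrees of freedom Inf, against 15.25 in all T cells). For most genes there the p-values do not measure a gene's own spread between pools.

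In CD8 T cells 2 of 14 genes tested passed, Birc5 and Pclaf, both higher in Cured, where 0.112% of 5375 genes were called higher and 0.558% in either direction. Both genes passed the filter on low counts through the Cured libraries, where they are high, so this count is no support for a direction of the list. Birc5 had 28, 19, 1 and 0 UMIs, or 25.9, 21.9, 1.78 and 0 CPM (log2 fold change 4.57, SE 0.85, adjusted p = 0.000441). Pclaf had 15, 54, 0 and 0 UMIs, or 13.9, 62.2, 0 and 0 CPM, and with the floor of 3 UMIs over the group it was at least 14.3-fold higher in Cured (adjusted p = 0.000744). Both Cured libraries lay above both Relapsed ones, but the UMIs came from 5 CD8 T cells for Birc5, with 24 of the 48 in 1 cell, and from 4 for Pclaf, with up to 27 in 1 cell. Outside the 6 CD8 T cells with at least 10 genes, Pclaf had 0 UMIs and Birc5 had 1. DESeq2 called neither gene, and neither passed the count filter with a gate of 2 markers or with thinned cells. Without Cured replicate 2 no gene passed and without Cured replicate 1 Pclaf did but Birc5 did not (adjusted p = 0.925). Without Relapsed replicate 1 or 2 Birc5 passed and Pclaf did not (adjusted p = 0.870 and 0.423). In all T cells 1 gene passed without Cured replicate 1 (Pclaf) and without Relapsed replicate 1 or 2 (Birc5).

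The same cells carried other genes that did not reach the test. Top2a had 11, 15, 0 and 0 UMIs in CD8 T cells, Cdk1 7, 6, 0 and 0, and Nusap1 6, 9, 0 and 0, and all were below the count filter. Stmn1 (37.9, 82.9, 46.4 and 9.25 CPM, 1.07, adjusted p = 0.312) and Hmgb2 (285, 314, 234 and 187 CPM, 0.45, adjusted p = 0.285) did not pass. Of the other CD8 genes with most UMIs, Dut was at 58.2, 95.5, 57.1 and 64.8 CPM, Pcna at 44.3, 65.6, 48.2 and 50.9 and Cks2 at 52.7, 32.2, 30.3 and 23.1. In Cks2 both Cured libraries lay above both Relapsed ones (adjusted p = 0.537), and in Dut and Pcna the groups overlapped. Outside the CD8 T cells with at least 10 genes the groups overlapped in Cks2 (35.6, 22.7, 30.6 and 23.1 CPM) and in Hmgb2 (181, 203, 198 and 187). The group effect on Pclaf differed between T and B cells (adjusted p = 0.000143, difference of log2 fold changes 10.8, 26 genes tested, 0.0608% of all genes called), since B cells had 0, 10, 10 and 3 Pclaf UMIs. Pclaf entered this test through the Cured T cells, where it is high, so the call is no support for a difference. The other 25 genes did not pass that test, and none of 12 passed in T cells set against NK cells (0.0154% of all genes called, 2 of the 12, Mcm6 and Hmgb2, at an unadjusted p under 0.05, DESeq2 not run), where Pclaf had 0 UMIs in NK cells.

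**Figure D5:**
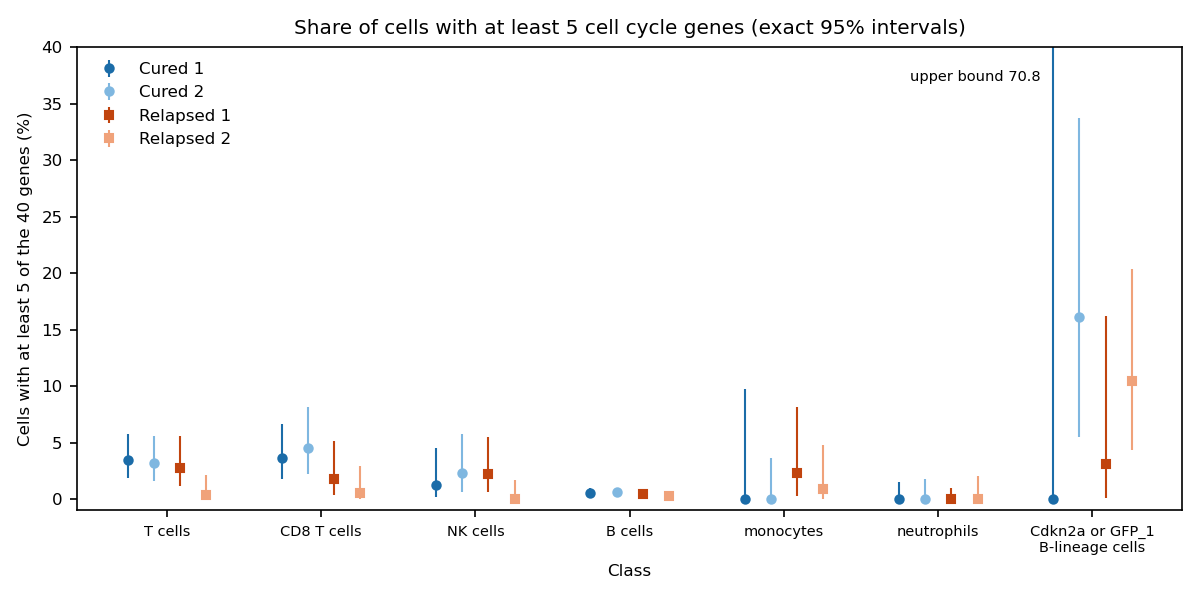
Percentage of cells with at least 5 of the 40 genes in each class and library, with exact (Clopper-Pearson) 95% intervals, circles Cured and squares Relapsed. In CD8 T cells both Cured libraries (3.66 and 4.52%) lie above both Relapsed ones (1.79 and 0.532%), with overlapping intervals, and the interval of the 3 Cdkn2a or GFP_1 cells in Cured replicate 1 runs up to 70.8%.

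Cells with at least 5 of the genes were also counted in each library. Among CD8 T cells they made up 3.66%, 4.52%, 1.79% and 0.532%, with a Cured mean of 4.09% ± 0.609 against 1.16% ± 0.887 (SD over 2 libraries, exact two-sided permutation p = 0.3333, the smallest that 2 against 2 libraries can give). Among all T cells they made up 3.45%, 3.15%, 2.77% and 0.379%, and the Relapsed libraries differed more from each other than replicate 1 of them from the Cured ones. In B cells the shares were 0.576%, 0.641%, 0.467% and 0.305% (exact permutation p = 0.3333), and in NK cells 1.28%, 2.30%, 2.20% and 0% (exact permutation p = 0.667). In monocytes the order was the opposite, with 0%, 0%, 2.33% and 0.870% (Cured minus Relapsed -1.60 percentage points, exact permutation p = 0.3333), from 3 cells. Cells with at least 5 genes were deeper than the rest, with median UMIs of 6203 against 3558.5 in CD8 T cells and 3417.5 against 2122 in B cells. With cells thinned to 1000 UMIs the B cell difference (Cured minus Relapsed) turned to -0.00562 percentage points and the NK cell difference to -0.323. These thinned values rest on 2 B cells and 1 NK cell. In CD8 T cells the thinned shares were 0.743%, 0.922%, 0.613% and 0%, from 2, 2, 1 and 0 cells. Among all T cells they were 0.506%, 0.599%, 0.427% and 0%. No thinned monocyte had 5 of the genes, so no monocyte difference was left. No neutrophil had 5 of the genes (exact upper limit 0.371%).

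Other genes of the cycle, taken from lists of 32 S phase, 40 G2 and M phase and 20 G1 and exit genes, were tested in the same fits, and none passed between Cured and Relapsed in any of the 6 classes fitted in edgeR. In CD8 T cells 8, 11 and 12 genes of the lists were tested. Closest in CD8 T cells was the tubulin Tuba1b (0.60, adjusted p = 0.107). Between classes many passed. In NK cells against B cells, 9 of 18 tested genes of G1 and exit were higher and 4 lower, against 20.9% and 23.2% of all genes, with the cyclins Ccnd2 (3.78, adjusted p = 1.38e-145) and Ccnd3 (1.75) and the inhibitor Cdkn2d (1.83) among the higher. In neutrophils against B cells 13 of 15 S phase genes were lower and none higher, while 9 of 16 G1 and exit genes were higher and 3 lower, against 44.3% of all genes lower and 25.7% higher. Lower S phase genes could pass the filter on low counts through B cells, where they are high (median log2 fold change -4.76 over the 15). The counts of these lists between classes are therefore no support for a direction. Among the higher G1 and exit genes were the antiproliferative genes Btg2 (2.24, adjusted p = 2.29e-132) and Btg1 (1.63) and the inhibitor Cdkn2d (2.71). These were named after their values had been seen. The list also holds cyclins, Cdk and E2F genes, so they do not stand for the whole list. Cdkn2a or GFP_1 B-lineage cells had more Ccnd2 than B cells (4.45, adjusted p = 5.64e-29). Of 17 S phase genes tested 1 was lower (Slbp, -0.78, adjusted p = 0.0314) and none higher. Of 14 G2 and M phase genes 3 were higher and none lower, and of 18 G1 and exit genes 3 were higher and 2 lower. Among all genes of this comparison 7.34% were higher and 7.12% lower.

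For the genes the results turn on, the positions on GRCm38 (GENCODE M21) are chromosome 11, 117849251 to 117855743 (+) for Birc5, chromosome 9, 65890237 to 65903266 (+) for Pclaf, chromosome 17, 56303321 to 56323486 (+) for Uhrf1, chromosome 8, 57511907 to 57515999 (+) for Hmgb2, chromosome 13, 51645232 to 51650660 (+) for Cks2 and chromosome 4, 134468320 to 134473843 (+) for Stmn1. Counts are uncertain for Stmn1, Tyms, Pcna, Ccnb1, Ccnb2 and Cks1b, which have a named related copy or pseudogene in that annotation, and for Top2a, Mcm7 and Stmn1, whose exons overlap a small RNA gene on the same strand. Cenpe, a kinetochore motor, Cdc20, an activator of the anaphase-promoting complex, Mcm3, Rrm1 and Tk1 (thymidine kinase) were measured in the same way. Between Cured and Relapsed B cells Tk1 was at 4.19, 2.61, 10.7 and 4.99 CPM (-1.15, SE 0.41, adjusted p = 0.539), and it passed without Relapsed replicate 2 (adjusted p = 0.00618).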

How the data were processed

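The deposited values are raw UMI counts per gene and cell barcode, made by the authors with Cell Ranger 3.1.0 against mm10, per the submitters' processing notes and the file headers. Sources used here do not name the annotation. Per the labels' protocols the 10x Genomics 5′ chemistry was used, so a count is a captured molecule and was not scaled by gene length. Barcodes with fewer than 200 genes (356) or more than 10% mitochondrial UMIs (362) were left out. No doublet caller was used, and cells with at least 3 markers of more than 1 lineage were kept out of the classes. Sums of UMIs by class and library, for classes of at least 20 cells in each library, entered edgeR 4.0.16 (R 4.3.3) and its quasi-likelihood test (TMM, filterByExpr, robust fit), with DESeq2 1.42.0 as an alternative. Adjusted p-values are Benjamini-Hochberg over all genes tested, at a threshold of 0.05, and are from edgeR unless DESeq2 is named. CPM were computed here from the class sums, without the TMM scaling that the fits use. The tests were checked on simulated data. Fold changes against a group with 0 UMIs use a floor of 3 UMIs, and the share that 0 carrying cells allow is 3 cells of the total.

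Each class was fitted alone. The genes, gene lists, markers and tests were chosen with earlier results of these data known. The class comparisons, the difference of group effects between classes and the values outside cells with at least 10 genes were added after the values had been seen. Genes given per library are those past the test in a class and up to 5 with the most UMIs there, and other genes named were chosen after their values were seen. Shares have exact (Clopper-Pearson) 95% intervals. Promoter sequences are RefSeq's. The alternatives are DESeq2, no count filter, leaving out each library, the replicate number as a block, a gate of 2 markers, mixed cells kept, cells thinned to 1000 UMIs, and for shares 3 or 10 genes in place of 5 and 36 genes without Hmgb2, Stmn1, Dut and Cks1b.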

Additional observations from a re-analysis of the deposited data

Results flagged for a closer look

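The group effect on Pclaf differed between T and B cells by 10.8 on the log2 scale (adjusted p = 0.000143 in edgeR). In T cells the 4 libraries had 15, 54, 0 and 0 Pclaf UMIs, with the groups apart, and in B cells 0, 10, 10 and 3, with the groups overlapping. The T cell UMIs came from 4 cells, with up to 27 in 1 cell, and the fitted difference is no bound because the Relapsed T cells had 0 UMIs. Of the 23 B cell UMIs, 15 lay in the B cells with at least 10 genes. Pclaf passed the filter on low counts through the Cured T cells, where it is high, so the call is no support for a difference.

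Cells left out of the classes held cell cycle genes. Of 171 cells with at least 3 T and at least 3 NK markers, 9.36% had at least 5 of the 40 genes (exact 95% interval 5.44 to 14.7), beside 2.59% of T cells and 5.62% of all mixed cells. The difference was not tested, and 12 of the 16 cells came from 1 library. Per library these were 1 of 41, 12 of 52, 1 of 22 and 2 of 56 cells, and 41 Pclaf and 23 Birc5 UMIs all came from Cured replicate 2. Median depth in these cells was 2796, 4008.5, 3019.5 and 3356 UMIs, and whether droplets held more than 1 cell was not tested.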

How the results depend on the processing

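The number of genes past the test between Cured and Relapsed moved with the settings where it rested on few cells. In T cells it was 0, and 2 with no count filter and 0 to 1 when a library was left out. In CD8 T cells it was 2, and 0 with DESeq2, 4 with no count filter, 0 with a gate of 2 markers, 1 with mixed cells kept, 0 with thinned cells and 0 to 2 when a library was left out. In B cells it was 0, and 0 to 1 when a library was left out (1 without Relapsed replicate 2). With the replicate number as a block 1 gene passed in T cells, 1 in B cells and 2 in CD8 T cells. Deviations of same-numbered libraries from their group means correlated at -0.0529 to 0.0627 over the genes tested. With 2 libraries per group and many genes of low count, these values cannot decide whether the numbers pair the libraries. In NK cells, monocytes and neutrophils the count was 0 under every alternative run. Between classes, T against B cells gave 12 genes, and 20 with DESeq2, 27 with no count filter, 4 with a gate of 2 markers, 4 with thinned cells and 8 to 12 when a library was left out. NK against B cells gave 9, and 5 with a gate of 2 markers and 4 to 8 when a library was left out. Cdkn2a or GFP_1 B-lineage against B cells gave 5, and 3 with DESeq2, 0 with thinned cells and 1 to 5 when a library was left out. T against NK cells gave 2, and 7 with no count filter, 1 with mixed cells kept and 1 to 4 when a library was left out. Monocytes and neutrophils against B cells stayed within 1.5 times of 10 and 13 genes. Over 51 gene values called between classes, 367 of 447 alternative values kept their call, 80 no longer passed and 0 turned direction. Differences in shares of cells (Cured minus Relapsed, percentage points) turned direction in NK cells when a library was left out (-0.407 without Relapsed replicate 2, up to 1.79) and thinned (-0.323), in B cells with at least 10 genes (-0.0460), with 36 genes (-0.0693) and thinned (-0.00562), in monocytes with at least 3 genes (5.66), and in Cdkn2a or GFP_1 B-lineage cells without Cured replicate 2 (-6.79) and without Relapsed replicate 1 (-2.38), within a range up to 9.34 when a library was left out. Leaving out Cured replicate 1 changes nothing in the Cdkn2a or GFP_1 contrast, which did not use it. The cause of these changes was not tested. The 2 libraries per group and the 133 cells of the smallest class limit every comparison.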
